A study of Arabidopsis thaliana with 6 samples.

Results

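The genes described here are 10 transcription factor genes that switch on and carry the maturation programme of the Arabidopsis seed, taken by locus identifier from 31608 genes and loci in the deposited expression table. They are the NF-YB subunits LEC1 (AT1G21970) and L1L (AT5G47670), the B3-domain factors ABI3 (AT3G24650), FUS3 (AT3G26790) and LEC2 (AT1G28300), the AP2-domain factor WRI1 (AT3G54320), and the bZIP factors bZIP67 (AT3G44460), EEL (AT2G41070), bZIP53 (AT3G62420) and ABI5 (AT2G36270). All 10 were found, and the deposited annotation lists LEC1 as NFYB9, L1L as NFYB6, bZIP67 as DPBF2 and EEL as DPBF4.

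PolyA RNA came from siliques, the fruits with their developing seeds, of plants of the mee45-1 mutant line (mee45 here) and of the wild-type accession Col-0, 4 days after pollination in both, with 3 libraries of each genotype. The line is a single allele whose lesion the labels do not describe, and the same material is labelled silique in one field and seed in another. The repeats are called biological, and the labels mention duplicate collection beside 3 repeats. Whether the libraries came from separately collected plants is not stated. The deposited p-values then reflect only how far these libraries differ, perhaps for technical reasons. Silique wall, seed coat, endosperm and embryo markers were all detected in both genotypes, as given further on. Some were near the floor, such as the embryo marker DRN at 2 summed counts in Col-0. Detection does not settle which tissue was taken, and the values are described below as those of whole siliques, after the silique label.

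In Arabidopsis seeds, LEC1, ABI3, FUS3 and LEC2 are master regulators that act in the embryo, and partly in the endosperm, to install embryo identity and later the synthesis of storage protein and oil. LEC1 and L1L are subunits that join NF-YC and NF-YA proteins on CCAAT elements, B3 factors bind RY elements, and bZIP factors bind elements with an ACGT core, often beside each other on one promoter. WRI1 acts downstream of LEC1 and LEC2 and activates genes of late glycolysis and of fatty acid synthesis in plastids, and ABI5 carries the abscisic acid response of late maturation and germination.

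The stretches before the gene starts of 5 regulators are shown because the regulators also bind one another's promoters. Each is the 250 bases before the annotated gene start, read from the RefSeq copy of the genome, build TAIR10.1, 5′ to 3′ on the strand of the gene. Capitals mark matches on either strand to the RY core CATGCA, to the G-box CACGTG, to ACGT and to CCAAT.
LEC1 promoter, chr1:7729650-7729899, minus strand: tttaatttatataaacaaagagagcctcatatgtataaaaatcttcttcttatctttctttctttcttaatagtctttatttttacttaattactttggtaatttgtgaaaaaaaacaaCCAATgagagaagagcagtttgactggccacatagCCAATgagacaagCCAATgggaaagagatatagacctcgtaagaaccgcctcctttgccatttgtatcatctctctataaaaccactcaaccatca
ABI3 promoter, chr3:8997120-8997369, plus strand: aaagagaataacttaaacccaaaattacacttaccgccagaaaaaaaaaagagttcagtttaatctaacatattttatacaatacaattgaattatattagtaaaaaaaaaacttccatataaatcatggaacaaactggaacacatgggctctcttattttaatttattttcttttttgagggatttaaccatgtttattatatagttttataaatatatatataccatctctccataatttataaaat
FUS3 promoter, chr3:9856213-9856462, minus strand: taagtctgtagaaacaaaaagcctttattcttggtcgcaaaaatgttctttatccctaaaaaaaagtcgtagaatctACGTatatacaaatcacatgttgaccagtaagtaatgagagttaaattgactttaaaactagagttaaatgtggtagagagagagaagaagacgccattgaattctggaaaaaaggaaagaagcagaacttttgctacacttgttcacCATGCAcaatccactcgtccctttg
bZIP67 promoter, chr3:16081907-16082156, minus strand: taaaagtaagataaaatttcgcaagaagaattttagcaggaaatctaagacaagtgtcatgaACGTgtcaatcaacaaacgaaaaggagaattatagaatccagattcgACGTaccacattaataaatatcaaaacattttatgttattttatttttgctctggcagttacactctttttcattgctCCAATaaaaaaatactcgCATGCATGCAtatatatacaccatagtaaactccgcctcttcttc
ABI5 promoter, chr2:15207637-15207886, minus strand: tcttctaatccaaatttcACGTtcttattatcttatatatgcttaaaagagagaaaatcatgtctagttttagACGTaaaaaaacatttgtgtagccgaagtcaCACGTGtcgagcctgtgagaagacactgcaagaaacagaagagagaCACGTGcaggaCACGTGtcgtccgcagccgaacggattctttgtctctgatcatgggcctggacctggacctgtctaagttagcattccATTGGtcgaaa
The bZIP67 stretch held 3 overlapping RY matches, from base -45 to base -36 before the start, together with 2 ACGT cores and 1 CCAAT. FUS3 held 1 RY match, which ended 20 bases before the start, and 1 ACGT core. LEC1 held 3 CCAAT matches and no RY match, and ABI3 held none of these motifs. ABI5 held 3 G-boxes, CACGTG, each of which contains an ACGT core, 2 further ACGT cores and 1 CCAAT on the other strand. Over all 10 regulators, an RY match was present in 2, an ACGT core in 4, a G-box in 1 and CCAAT in 4. The same window held an RY match in 8.51% of 26711 protein-coding genes, an ACGT core in 44.2%, a G-box in 6.58% and CCAAT in 46.1%. The windows of L1L and EEL, not shown, lie inside the neighbouring genes AT5G47660 and AT2G41060. A match is a match of letters only, in a short window, and binding was not measured.

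The authors deposited 1 mean per gene and genotype, taken over 3 libraries, both as FPKM (fragments scaled by transcript length and library depth) and as estimated read counts. Mean depth was 20530953 counts per library in mee45 and 20242476 in Col-0. Single libraries cannot be shown from genotype means, so no replicate SD is given. Intervals below are exact 95% intervals on the counts summed over the libraries of a genotype, covering no other source of error. Genes called higher or lower are those for which the authors' deposited table has an adjusted p under 0.05. The targeted gene MEE45 (AT4G00260) had 3 summed counts in mee45 and 62 in Col-0, a log2 ratio at equal depth of -4.39 (-6.71 to -2.78).

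Of the 10 regulators, 8 fell in mee45, 0 rose, and bZIP53 and ABI5 did not pass the test of the authors' deposited table. At an unadjusted p under 0.05 the counts in the authors' deposited table were also 8 lower and 0 higher. Over all 25434 genes tested, 9.15% were lower and 6.67% higher. Among the 1448 tested genes that the deposited annotation gives transcription factor activity, which include all 10, 13.3% were lower and 9.25% higher. The median log2 fold change of the regulators, of mean FPKM in mee45 over Col-0, was -1.44, against 0.0018 over the 24055 tested genes with a fold. Together the 10 genes took 178.6 CPM (counts scaled to library depth) in mee45 and 364.2 CPM in Col-0. In whole siliques, fewer cells that express these genes and less of their RNA per cell cannot be told apart.

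**Figure D1:**
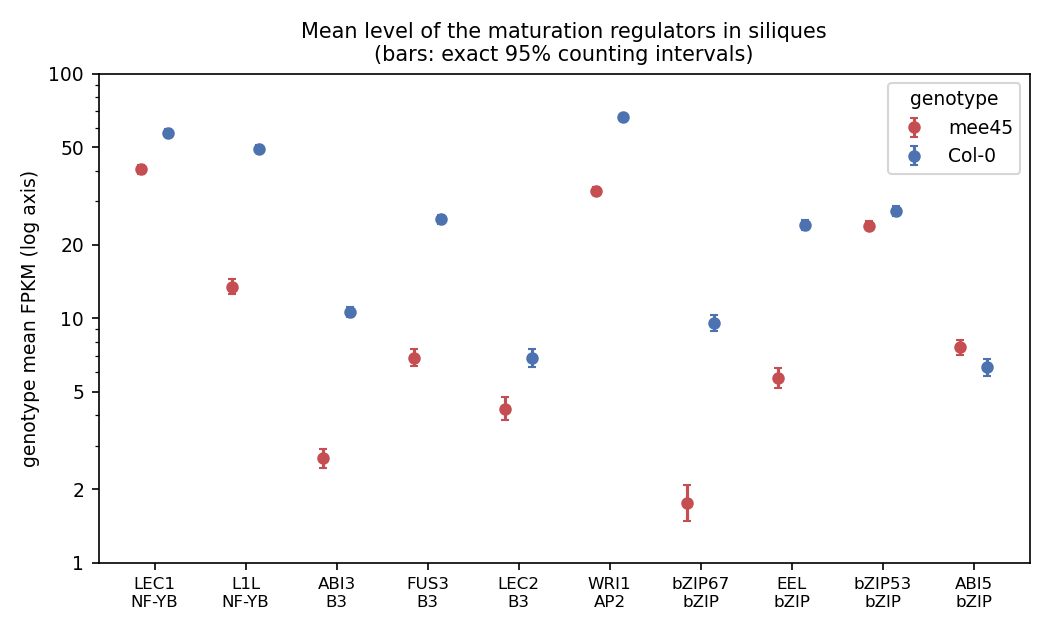
Mean FPKM on a log axis for each regulator, with the mean of 3 mee45 libraries as a red point and that of 3 Col-0 libraries as a blue point to its right; bars are exact 95% counting intervals, not replicate error. In 9 of the 10 genes the mee45 point lies below the Col-0 point, widest for bZIP67 at 1.76 against 9.59 FPKM, and for ABI5 it lies above.

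The 2 NF-YB genes stood close together in Col-0 and apart in mee45. L1L had a mean of 13.4 FPKM in mee45 and 49.3 FPKM in Col-0, or 780 and 2781 summed counts. LEC1 had 40.6 FPKM in mee45 and 57.1 FPKM in Col-0, or 2346 and 3251 summed counts. LEC1 stood at 3.02 times the L1L level in mee45 and at 1.16 times in Col-0. The L1L log2 fold change was -1.88, with a counting interval of -1.97 to -1.74 at equal total counts (adjusted p = 2.97e-10, authors' deposited table). That of LEC1 was smaller, -0.49, with an interval of -0.57 to -0.41 (adjusted p = 0.00829, authors' deposited table). The counting intervals of the pair do not overlap, but the difference between them was not tested over libraries.

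Among the B3 factors, ABI3, which is needed for desiccation tolerance and dormancy, and FUS3, which also balances abscisic acid and gibberellin, fell by the larger factors, and LEC2, an activator of embryo identity and of oil genes, fell by a smaller factor. ABI3 had 2.67 FPKM in mee45 and 10.6 FPKM in Col-0, so its mee45 level was 25.2% of that in Col-0. FUS3 had 6.90 FPKM in mee45 and 25.3 FPKM in Col-0, or 27.2%. LEC2 had 4.27 FPKM in mee45 and 6.90 FPKM in Col-0, or 61.9%. The log2 fold changes were -1.99 for ABI3 (counting interval -2.11 to -1.82), -1.88 for FUS3 (-1.99 to -1.73) and -0.69 for LEC2 (-0.88 to -0.49). The authors' deposited table has adjusted p-values of 2.08e-06 for ABI3, 2.45e-09 for FUS3 and 0.0210 for LEC2. FUS3 stood at 2.58 times the ABI3 level in mee45 and at 2.38 times in Col-0, so this ratio moved little.

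WRI1, the oil synthesis regulator, was the most abundant of the 10 per length in Col-0. It had 33.1 FPKM in mee45 and 66.2 FPKM in Col-0, or 3180 and 6187 summed counts, which is 50.1% of the Col-0 level. The log2 fold change was -0.998 (counting interval -1.04 to -0.92, adjusted p = 5.10e-08, authors' deposited table). The authors' deposited table also marks genes as significant, and in all 25434 tested genes this mark equals an adjusted p under 0.05 with a change of more than 2-fold. WRI1 lies just outside it. The mark is on 5 of the 10 regulators (ABI3, FUS3, L1L, bZIP67 and EEL), against 6.34% of the genes tested.

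The 4 bZIP genes split in a pair that fell strongly and a pair that did not pass the test. bZIP67, a seed bZIP that acts with the LEC1-type NF-Y complex, had 1.76 FPKM in mee45 and 9.59 FPKM in Col-0, or 135 and 707 summed counts. EEL, a bZIP known to act on the same late embryogenesis promoter as ABI5 and against it, had 5.68 FPKM in mee45 and 24.0 FPKM in Col-0, or 461 and 1891 summed counts. By value these were the deepest falls of the 10, with log2 fold changes of -2.44 for bZIP67 (counting interval -2.69 to -2.14) and -2.08 for EEL (-2.21 to -1.91). The EEL interval overlaps those of bZIP67, ABI3, L1L and FUS3, so its place among them is not settled within counting error. The authors' deposited table has adjusted p-values of 6.90e-09 for bZIP67 and 1.05e-08 for EEL.

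bZIP53, which forms heterodimers with bZIP10 and bZIP25 on storage protein promoters, had 23.9 FPKM in mee45 and 27.4 FPKM in Col-0. Its log2 fold change was -0.20 (counting interval -0.28 to -0.10), and it missed the threshold (adjusted p = 0.348, authors' deposited table). ABI5 was the 1 regulator with the higher mean in mee45, at 7.59 FPKM and 806 summed counts, against 6.30 FPKM and 657 summed counts in Col-0. Its log2 fold change of 0.27 (counting interval 0.12 to 0.43) also missed the threshold (adjusted p = 0.355, authors' deposited table). For both genes the counting interval leaves out 0, while the authors' deposited table gives no call. ABI5 stood at 1.34 times the EEL level in mee45 and at 0.262 times in Col-0.

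**Figure D2:**
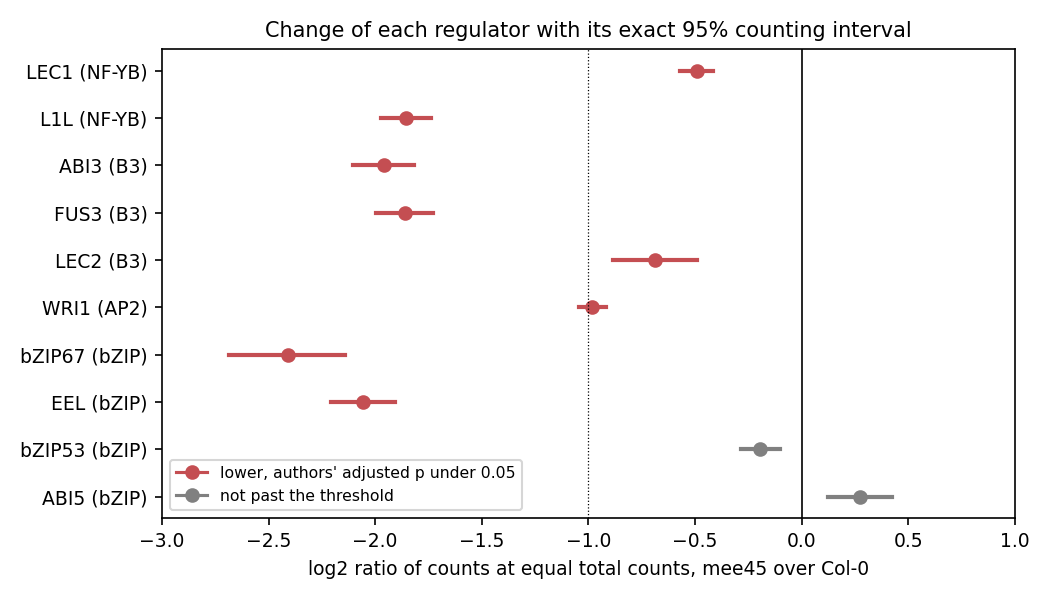
Log2 ratio of summed counts in mee45 over Col-0 at equal total counts, 1 row per regulator, with exact 95% counting intervals as bars, red where the authors' adjusted p was under 0.05 and grey otherwise; the dotted line marks a 2-fold decrease. bZIP67, EEL, ABI3, FUS3 and L1L lie left of that line, WRI1 on it, LEC1 and LEC2 between it and 0.

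The order of the levels per length differed between the genotypes. In mee45 it ran LEC1, WRI1, bZIP53, L1L, ABI5, FUS3, EEL, LEC2, ABI3 and bZIP67, and of the neighbours only ABI5 and FUS3 had overlapping counting intervals. In Col-0 the order was WRI1, LEC1, L1L, bZIP53, FUS3, EEL, ABI3, bZIP67, LEC2 and ABI5. There bZIP53 and FUS3, FUS3 and EEL, ABI3 and bZIP67, and LEC2 and ABI5 overlapped within counting error. ABI5 was thus the last of the 10 in Col-0 and the fifth in mee45. LEC1, WRI1 and bZIP53 made up 29.0%, 23.7% and 17.1% of the summed FPKM of the 10 genes in mee45, against 20.2%, 23.4% and 9.71% in Col-0.

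Counting of bZIP53 needs a remark, since its transcript also carries a conserved upstream reading frame that the table lists as a gene of its own (AT3G62422). Both entries hold the same mean count, 621.8 in mee45 and 700.8 in Col-0, so the reads were split evenly and the bZIP53 level is understated. Summed, the entries had 47.8 FPKM in mee45 and 54.9 FPKM in Col-0, and a log2 ratio of -0.19 at equal total counts. On that scale bZIP53 would be the first in mee45 and the third in Col-0. L1L and EEL overlap other genes in the TAIR10.1 annotation. L1L shares 116 bases with AT5G47660 on its own strand and 124 bases with AT5G47680 on the opposite strand. EEL shares 817 bases with AT2G41060 on its own strand and 347 bases with the noncoding RNA gene AT2G09215 on the opposite strand. The first 3 of these genes had mean counts of 141.0, 611.3 and 928.7 in mee45 and of 143.0, 591.3 and 918.7 in Col-0. They did not pass the test, and AT2G09215 had no counts to compare. No source used here says whether counting used strand.

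The genes lie on 4 chromosomes, with 5 of them on chromosome 3, and none is next to another. In TAIR10.1, LEC1 spans 7727577 to 7729649 and LEC2 spans 9896867 to 9899876 on chromosome 1. On chromosome 3, ABI3 spans 8997370 to 9001185, FUS3 9853828 to 9856212, bZIP67 16079432 to 16081906, WRI1 20114488 to 20118745 and bZIP53 23091586 to 23092850. EEL spans 17129753 to 17132386 and ABI5 15204659 to 15207636 on chromosome 2, and L1L spans 19314778 to 19316169 on chromosome 5. Of the 20 nearest protein-coding neighbours, 1 on each side of each gene, 0 were lower and 0 higher, 19 did not pass the test of the authors' deposited table and 1 had no counts. Some of the 19 could hardly have passed, since AT3G26800, AT3G24640, AT3G54310, AT2G36260 and AT1G28305 had at most 0.183 FPKM in either genotype. bZIP53 is annotated without introns, and the B3 genes with 6 exons each.

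**Figure D3:**
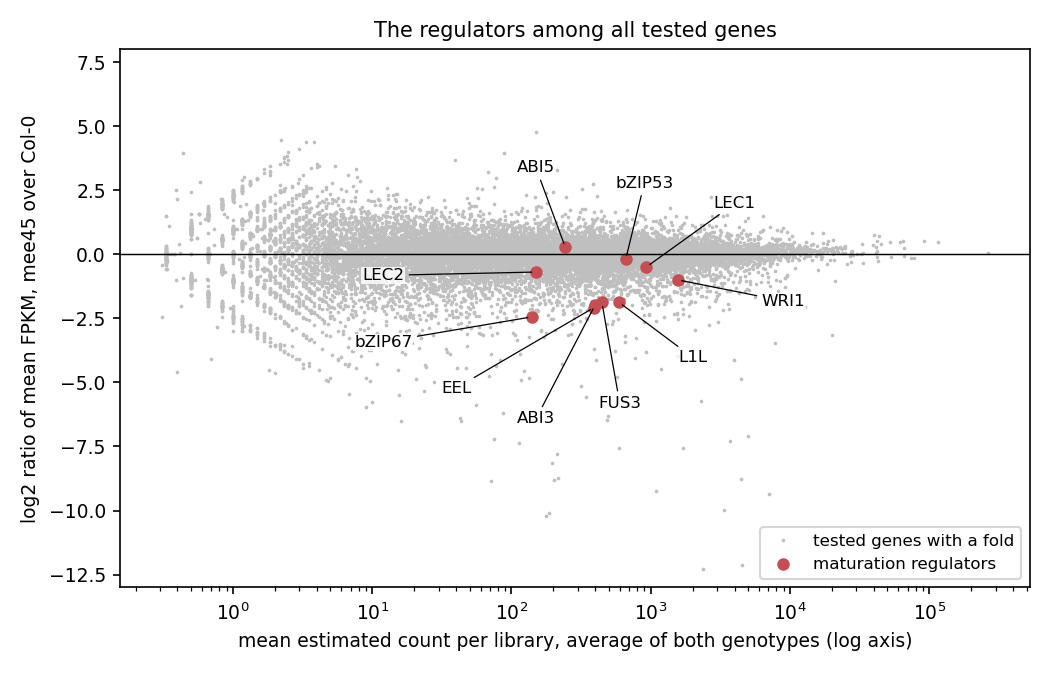
Log2 ratio of mean FPKM in mee45 over Col-0 against the mean estimated count per library on a log axis, with 1 grey dot for each of 24055 tested genes and red points for the regulators. The regulators lie well above the counts at which the cloud widens, and bZIP67, EEL, ABI3, FUS3 and L1L lie along its lower edge.

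Against the 20267 genes with a mean count of at least 10 in both genotypes, the bZIP67 fold change was lower than all but 0.395% of genes, that of EEL all but 0.715%, ABI3 all but 0.780%, L1L all but 0.977% and FUS3 all but 0.982%. WRI1 followed with 4.36% of genes lower, LEC2 with 7.46% and LEC1 with 10.7%. bZIP53 had 22.5% of genes below it and ABI5 82.4%, both inside the bulk. The count limit left out genes that fell below 10 in mee45, such as CRC and CRB, so the low end was cut. No such limit applied to a ranking of the 192 transcription factor genes called lower with a fold. Counted from the largest fall, bZIP67 ranked 16, EEL 25, ABI3 26, L1L 35 and FUS3 36 there. A fall of at least 2-fold past the threshold was seen for 4.42% of all genes tested and 7.60% of the transcription factor genes, and for 5 of the 10 regulators.

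Relatives of each factor were measured too. Counts in this and the following lists stand beside 9.15% lower and 6.67% higher over all genes tested. Of 7 tested NF-YB relatives of LEC1, 0 fell and 1 rose, with a median log2 fold change of 0.24. The riser was NF-YB3, at 41.8 FPKM in mee45 and 30.7 FPKM in Col-0 (log2 fold change 0.45, adjusted p = 0.0158, authors' deposited table), and the most abundant in Col-0 was NF-YB2, at 88.1 FPKM in mee45 and 74.5 FPKM in Col-0, which did not pass. The partners of LEC1 and L1L in the trimeric complex were measured in 17 genes, of which 2 fell, 2 rose and 13 did not pass, with a median of -0.08. NF-YC2, known to act with L1L and bZIP67 and the most abundant of them in Col-0, fell to 137.0 FPKM in mee45, against 241.6 FPKM in Col-0, a log2 fold change of -0.82 (adjusted p = 3.29e-06, authors' deposited table). NF-YA7 fell too, at -0.46, while NF-YA10 and NF-YC4 rose by 0.95 and 0.41 on the log2 scale.

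Of 14 bZIP relatives, among them the dimer partners bZIP10 and bZIP25 and the ABF factors of abscisic acid signalling, 0 passed the test of the authors' deposited table, with 3 lower and 1 higher at an unadjusted p under 0.05, and the median was -0.09. bZIP10 had 39.0 FPKM in mee45 and 43.3 FPKM in Col-0, and bZIP25 had 57.1 FPKM in mee45 and 59.9 FPKM in Col-0. The most abundant, bZIP11, had 83.0 FPKM in mee45 and 89.2 FPKM in Col-0, and it too shares its reads with an entry for an upstream reading frame. AREB3 and GBF4, of the same bZIP group as ABI5, EEL and bZIP67, lay just outside the threshold, with log2 fold changes of -0.36 and -0.31 (adjusted p = 0.0503 and 0.0506, authors' deposited table). Of the 3 relatives of WRI1, 0 were called and 0 had an unadjusted p under 0.05 in the authors' deposited table. The most abundant, WRI2, had 17.6 FPKM in mee45 and 19.4 FPKM in Col-0.

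Beside shares of 9.15% lower and 6.67% higher over all genes tested, repressors that keep the regulators silent outside the seed were measured in 17 genes. Of these, 3 fell, 0 rose and 14 did not pass, with a median of -0.04 and an unadjusted p under 0.05 for 4 lower and 0 higher in the authors' deposited table. The 3 were the B3 repressor VAL1, at 15.1 FPKM in mee45 and 21.4 FPKM in Col-0 (log2 fold change -0.51, adjusted p = 0.00285, authors' deposited table), and the polycomb ring-finger genes RING1A and BMI1A, at -0.50 and -0.49. The close relatives VAL2 and VAL3 had log2 fold changes of -0.05 and -0.04 and did not pass, and the most abundant repressor gene, the histone deacetylase HDA19, had 87.8 FPKM in mee45 and 82.6 FPKM in Col-0.

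Among 18 activators and hormone signalling genes around the regulators, 5 fell and 0 rose, with a median of -0.16. The share lower was 9.15% over all genes tested and 13.3% among the transcription factor genes. The 5 were transcription factor genes. MYB118, a maturation regulator of the endosperm, had the smallest adjusted p of the list (5.82e-08, authors' deposited table), with 16.9 FPKM in mee45 and 30.4 FPKM in Col-0 and a log2 fold change of -0.85. Its relative MYB115 was at -1.32, the MADS-box embryo factor AGL15 at -1.20, its relative AGL18 at -0.47 and BBM, an AP2 factor that promotes embryo identity, at -0.81. These 4 were named after their values were seen. None of the kinases, phosphatases, ligases and ABI5-binding proteins of abscisic acid signalling on the list was called, and the most abundant, SNRK2.2, had 78.5 FPKM in mee45 and 90.7 FPKM in Col-0. HSFA9, a heat stress factor of late maturation downstream of ABI3, had 4 summed counts in mee45 and 2 in Col-0.

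Targets of the regulators were listed as 21 genes, of which 19 were tested, and 15 fell, 1 rose and 3 did not pass. The median log2 fold change over the 18 with a fold was -5.43. This list holds storage protein and oil body genes, so it is described briefly. CRC, a 12S globulin gene, had 6 summed counts in mee45 and 26933 in Col-0 (log2 fold change -12.13, adjusted p = 2.57e-18, authors' deposited table), and SESA3, a 2S albumin gene, had 1.43 FPKM in mee45 and 936.1 FPKM in Col-0, though the albumin copies are similar and reads may be shared. Every one of the 15 targets that fell had a larger log2 fall than ABI3, the smallest of them being OLEO3 at -2.42, close to bZIP67 at -2.44.

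The target that rose was FAD3, the desaturase that makes linolenic acid, a gene that bZIP67 is known to activate together with L1L and NF-YC2. FAD3 had 118.8 FPKM in mee45 and 92.2 FPKM in Col-0, a rise of 0.37 on the log2 scale (adjusted p = 0.0170, authors' deposited table). In whole siliques it thus moved the opposite way to bZIP67, L1L and NF-YC2, though the call was lost at an adjusted p under 0.01. Whether FAD3 RNA came from the cells that express those genes was not measured. Of the other targets, EM1 and EM6, the LEA genes by which ABI5 is usually read, had 0 counts in both, which allows up to 3 counts summed over the libraries of a genotype. SOM had 1 summed count in mee45 and 0 in Col-0, and the dormancy gene DOG1 had 10 summed counts in mee45 and 26 in Col-0. RAB18, a dehydrin gene of the abscisic acid response, had 9.11 FPKM in mee45 and 8.19 FPKM in Col-0 and did not pass.

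Targets of WRI1 fell in 10 of 14 cases, 0 rose and 4 did not pass, with a median of -0.37 and a range of -3.82 to -0.09. SUS2, a sucrose synthase of the maturing seed, stood apart at 2.44 FPKM in mee45 and 34.4 FPKM in Col-0 (log2 fold change -3.82, adjusted p = 1.11e-12, authors' deposited table). The other 9 that fell lay between -0.71 and -0.32, and so had smaller changes than WRI1 itself. The most abundant in Col-0, PKP-BETA1, a subunit of plastid pyruvate kinase, had 122.3 FPKM in mee45 and 182.4 FPKM in Col-0, a log2 fold change of -0.58. BCCP2 of the plastid acetyl-CoA carboxylase was at -0.71, and BCCP1, its paralogue, was at -0.09 and did not pass.

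**Figure D4:**
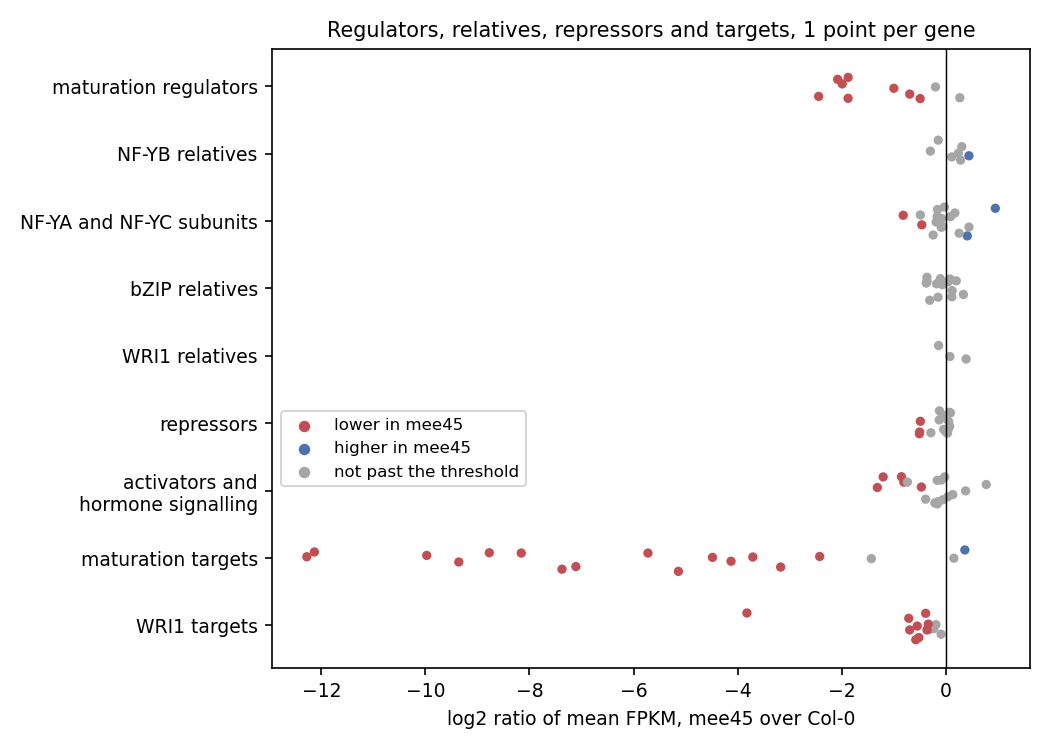
Log2 ratio of mean FPKM in mee45 over Col-0, 1 point per gene with a fold, for the regulators, their relatives, repressors, activators and targets; red points fell, blue points rose and grey points did not pass the authors' test, and vertical spread within a row only separates points. Relatives and repressors gather near 0, the regulators reach -2.44 and the maturation targets reach -12.28.

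Markers of the tissues in the fruit were measured beside these changes, with shares of 9.15% lower and 6.67% higher over all genes tested. Of 12 embryo markers 2 fell (WOX8 and WOX9, at -0.74 and -0.48), 1 rose (STM, by 0.80) and 9 did not pass, with a median of -0.06. Their summed FPKM was 142.5 in mee45 and 136.5 in Col-0, or 33.7 and 33.3 without ATML1 and PDF2, which are also expressed in the epidermis. The near equality of the latter pair rests on STM, at 17.3 FPKM in mee45 and 9.97 FPKM in Col-0. Its rise offset the falls of WOX8 and WOX9, so the sums are no measure of embryo content. Of 9 endosperm markers 5 rose and 1 fell, with a median of 0.59 and summed FPKM of 70.7 in mee45 and 59.3 in Col-0; AGL36 rose by 1.69, and ZOU, which acts in endosperm breakdown, was at -0.93. Seed coat markers fell in 4 of 9 cases and rose in 2, with a summed FPKM of 932.1 in mee45 and 1094 in Col-0; TT10, the late laccase of seed coat browning, was at -1.61, TT12 rose by 0.95, and BAN, the most abundant in Col-0, had 572.9 FPKM in mee45 and 465.5 FPKM in Col-0 and did not pass. Silique wall markers fell in 1 of 7 cases and rose in 2, with a summed FPKM of 444.0 in mee45 and 426.1 in Col-0; SHP2 was at -0.33, and SHP1 and IND rose by 0.40 and 0.69. No marker on these lists was at 0 in either genotype, and the part of tissue composition or of seed stage in the regulators' changes was not tested.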

How the data were processed

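Estimated counts and FPKM were deposited by the authors as genotype means, per the file headers; 96.1% of counts in each genotype are whole numbers after multiplication by 3 (within 0.03). Per the submitters' processing notes, fastp 0.18.0, TopHat2 2.0.3.12, Bowtie2 2.2.8, RSEM, Cufflinks and edgeR were used with build TAIR10, no roles being stated. The authors' deposited table holds a log2 ratio of mean FPKM, a p-value and a Benjamini-Hochberg adjusted p for each of 25434 genes; the option of edgeR is unstated.

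The planned edgeR fit over libraries needs values per library and was not run. Fold changes, medians and Clopper-Pearson counting intervals were computed in Python 3.11.15 with scipy 1.17.1. Count ratios with their intervals were tested on simulated counts that held counting error alone, and the Benjamini-Hochberg adjustment on simulated p-values. Medians and FPKM ratios were not simulated. Reads lack molecular identifiers, so intervals cover counting error only. Genes with 0 counts in a genotype have no fold. The members and 12 gene lists of 149 genes were chosen with earlier results of these data known. Named are all members and, of each other list, the called gene with the smallest adjusted p in each direction, every called gene where 4 or fewer were called, and the most abundant in Col-0; further genes were named after their values were seen. Positions and sequences are from RefSeq TAIR10.1, which 30622 identifiers matched.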

Additional observations from a re-analysis of the deposited data

How the results depend on the processing

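No paired analysis was possible because the files used hold genotype means; for the same reason the replicate block and leaving out libraries were not run. Of the 10 regulators, 8 were lower at an adjusted p under 0.05, 7 at an adjusted p under 0.01, 8 at under 0.1, 7 with at least 1.5-fold, 5 with at least 2-fold, and 8 with p adjusted over genes with a mean count of at least 10; 0 were higher under each of these settings. Scaling counts by the total or by the median ratio shifted no regulator's log2 fold change by more than 0.034 and 0.028. The counting interval is centred on the counts scaled by the total, so it cannot serve as a check of these 2 settings. Adding 0.1 to FPKM left every regulator's log2 fold change within its counting interval. With log2(FPKM + 1), which shrinks low genes by construction, ABI3 (-1.66), bZIP67 (-1.94) and EEL (-1.90) moved beyond it without a change of direction. FUS3 (-1.74) stayed inside, near its upper end of -1.73. Summing bZIP53 with its upstream reading frame, an alternative added after seeing the data, gave -0.19.

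Small counts over other lists moved by more than 1.5 times. At an adjusted p under 0.01, NF-YB relatives had 0 higher, NF-YA and NF-YC subunits 1 lower and 1 higher, repressors 1 lower, maturation targets 0 higher and WRI1 targets 6 lower. With at least 1.5-fold, NF-YB relatives had 0 higher, NF-YA and NF-YC subunits 1 lower and 1 higher, repressors 0 lower, maturation targets 0 higher and WRI1 targets 3 lower. The higher call for FAD3 and the lower call for VAL1 thus rest on changes under 1.5-fold.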

Other observations

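Of the genes annotated with transcription factor activity, 11 had at least 4 FPKM in Col-0 and a fall past the authors' threshold at least as large as that of ABI3, and 8 of them are not maturation regulators; they were chosen after values were seen. PEI1 (AT5G07500), a zinc finger factor of the embryo, had 5.29 FPKM in mee45 and 24.7 FPKM in Col-0, a log2 fold change of -2.22, close in level and fall to EEL. NAC038 (AT2G24430) had 0.200 FPKM in mee45 and 4.39 FPKM in Col-0, a log2 fold change of -4.46. FLC (AT5G10140), the repressor of flowering, had 0.740 FPKM in mee45 and 4.64 FPKM in Col-0, at -2.65, and the homeodomain gene HAT9 (AT2G22800) had 1.19 FPKM in mee45 and 6.58 FPKM in Col-0, at -2.47. The remaining 4 are WRKY40, WRKY33, RRTF1 and AT1G64800, the first 3 of which are known from stress responses.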
